A study of Mus musculus with 6 samples.

Results

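Neonatal epidermal cells of *Scd1-/-* mice were compared with those of wild-type (WT) mice by RNA-seq at postnatal day 1 (P1). All 4 libraries of that age were used, out of 6 in the series, with 2 per genotype. Each genotype had 1 library labelled female and 1 labelled male, and each *Scd1-/-* library was set against the WT library of its own sex. The labels give all mice as C57BL/6, the tissue as skin and the cells as total epidermal cells freed by digestion of the skin, and no mouse was treated. The *Scd1-/-* mice, given in the study's methods as B6.129-Scd1tm1Ntam/J, carried a germline deletion, so every cell lacked the gene from conception and the change is not restricted to keratinocytes. The study's methods give sex-matched littermates as controls in general, but the labels do not tie these libraries to litters. How many mice were pooled in a library is not given in the sources used here, so p-values measure the spread between these libraries only. Every gene counted was considered, and genes were grouped by function and gene family, leaving aside the lipid synthesis and extracellular matrix genes.

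SCD1 is an endoplasmic reticulum enzyme that places a double bond in saturated fatty acids, and in skin it is best known from the sebaceous gland. Newborn mouse skin holds a stratified epidermis, in which keratinocytes move outward and build a cross-linked cornified envelope, and hair follicles still under construction. In a follicle, an inner root sheath moulds the growing fibre, and the hair shaft inside it is made of its own keratins and keratin-associated proteins (KAPs), each encoded in dense gene clusters.

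Library totals lay between 16118331 and 18074702 counts on genes, and 15554 of 54532 genes passed the filter on low counts and were tested. Levels are given below in CPM, the count of a gene over the scaled library total, with TMM factors that lay between 0.978 and 1.03. *Xist* and the Y-linked genes matched the sex labels of all 4 libraries. All 12 keratinocyte markers were detected, with a summed level of 86361 and 102097 CPM in the WT libraries and of 91810.0 and 98530.1 CPM in the *Scd1-/-* libraries. Summed levels of endothelial markers reached at most 5.30 CPM and those of skeletal muscle markers at most 13.5 CPM in any library. Fibroblast markers summed to 559 to 925 CPM.

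*Scd1* itself (ENSMUSG00000037071, GRCm38 chr19:44394451-44407709) was read at 152 CPM in the WT female library and 203 CPM in the WT male library. In the *Scd1-/-* female and male libraries it was read at 14.9 and 14.7 CPM. The genotypes did not overlap, and the level was 11.9-fold lower in *Scd1-/-* cells (log2 fold change -3.57, SE 0.134, adjusted p = 6.73e-148). Here and below, adjusted p-values come from edgeR's quasi-likelihood test with the pair as a block and Benjamini-Hochberg adjustment over all genes, and 0.05 was the threshold. Of the other desaturase genes near by, *Scd3* fell from 19.3 and 21.8 CPM to 2.50 and 1.93 CPM (log2 fold change -3.21). Whether these related genes share reads was not tested. *Scd2* was read at 189.8 and 246 CPM in WT and at 193 and 269 CPM in *Scd1-/-* cells and did not pass the test. Among 25 tested genes within 1 Mb of *Scd1*, *Scd3* and the semaphorin gene *Sema4g* (log2 fold change 0.52) passed the test.

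Across all genes, 307 were higher in *Scd1-/-* epidermis and 241 were lower, which is 1.97% and 1.55% of those tested and 3.52% in all. The test rests on 1 residual degree of freedom and on a spread shared by all genes, and so do the SE values. Without the block, only 23 higher and 22 lower genes passed the threshold, 0.148% and 0.141% of those tested and 0.289% in all, and all 45 were among the 548. Counts without the block are therefore given beside most counts of genes below. With 2 libraries per genotype, chance alone can separate the genotypes. Of all genes tested, 14.9% had both *Scd1-/-* libraries above both WT libraries, and 17.1% had both below. These observed shares include any genes that differ by genotype. Of the genes past the threshold, 288 higher and 231 lower genes, 1.85% and 1.49% of those tested, also separated the genotypes. Over all genes tested the median log2 fold change was 0.00, and the female and the male pair moved in the same direction in 55.3%. In DESeq2 with the block, 64 genes were higher and 43 lower.

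**Figure D1:**
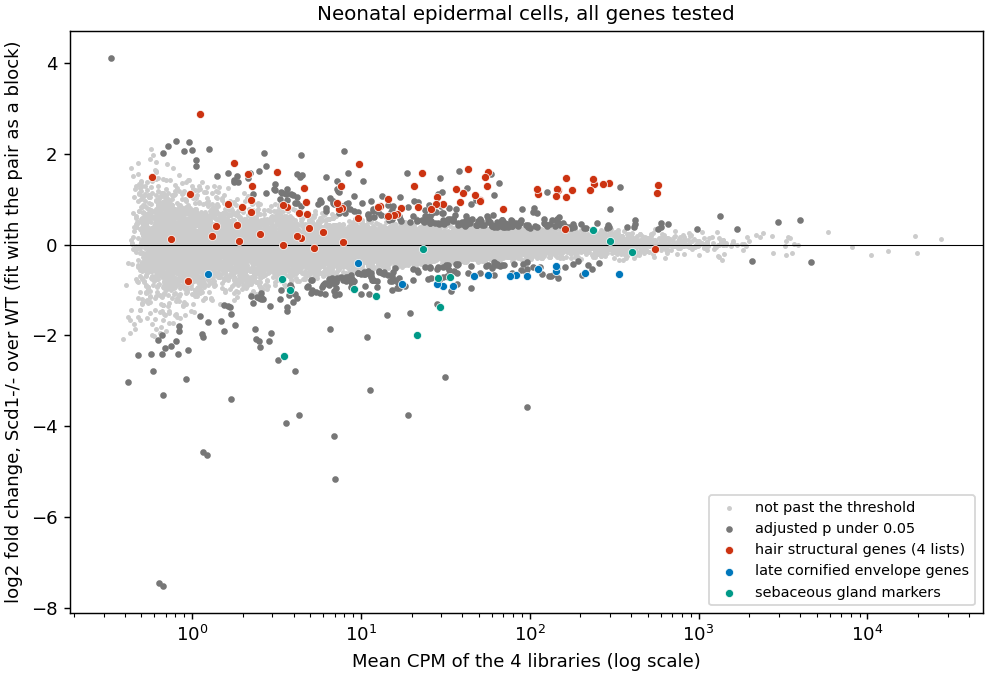
Log2 fold change of *Scd1-/-* over WT against the mean level in CPM on a log axis, with 1 point per gene tested and dark grey for genes past the threshold. Hair structural genes are red, late cornified envelope genes blue and sebaceous gland markers green, and the red points lie above 0 for 75 of 79 genes.

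Genes of the hair fibre and its inner sheath led the increase. The 4 lists of hair structural genes held 79 of the 15554 tested genes. Of the 79, 52 rose and 0 fell, where 1.97% of all genes tested rose and 1.55% fell. These genes made up 16.9% of all higher genes. They took 9 of the first 10 places among higher genes ordered by p, and 30 of the first 50, but 0 of the first 50 among lower genes. Without the block 17 of the 79 passed, out of 23 higher genes in all.

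The promoters of 4 of these genes, and of a gene of the epidermal barrier that moved the other way, are shown because the keratin clusters moved together across several chromosomes. The sequences are from RefSeq on GRCm38.p6, 5′ to 3′ on the strand of the gene, from 250 bases before to 50 bases after its start. Capitals mark matches to TATAAA, the TATA box, and to CTTTGA, the core read by TCF and LEF factors, both searched on both strands and without overlap here. They are *Krt25* (chr11:99322902-99323201, minus strand), *Krt28* (chr11:99374854-99375153, minus strand), *Krt71* (chr15:101743048-101743347, minus strand), *Krt31* (chr11:100050502-100050801, minus strand) and *Lce1i* (chr3:92778850-92779149, minus strand).
Krt25: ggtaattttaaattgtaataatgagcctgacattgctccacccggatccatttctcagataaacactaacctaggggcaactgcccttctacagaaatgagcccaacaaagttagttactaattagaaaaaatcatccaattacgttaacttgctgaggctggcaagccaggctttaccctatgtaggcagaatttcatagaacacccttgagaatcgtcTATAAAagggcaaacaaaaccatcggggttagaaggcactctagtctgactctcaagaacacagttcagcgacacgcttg
Krt28: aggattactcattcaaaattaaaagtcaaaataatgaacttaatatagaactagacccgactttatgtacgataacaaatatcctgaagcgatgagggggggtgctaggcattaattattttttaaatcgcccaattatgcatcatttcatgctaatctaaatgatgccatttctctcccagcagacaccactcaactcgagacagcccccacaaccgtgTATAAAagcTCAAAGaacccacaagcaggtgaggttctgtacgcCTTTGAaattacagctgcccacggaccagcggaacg
Krt71: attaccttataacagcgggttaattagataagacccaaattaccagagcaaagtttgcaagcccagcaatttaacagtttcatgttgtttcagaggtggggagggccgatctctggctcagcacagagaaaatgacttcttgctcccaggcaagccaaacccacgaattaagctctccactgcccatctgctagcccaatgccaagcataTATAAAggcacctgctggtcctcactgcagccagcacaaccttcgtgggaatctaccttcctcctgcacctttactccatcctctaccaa
Krt31: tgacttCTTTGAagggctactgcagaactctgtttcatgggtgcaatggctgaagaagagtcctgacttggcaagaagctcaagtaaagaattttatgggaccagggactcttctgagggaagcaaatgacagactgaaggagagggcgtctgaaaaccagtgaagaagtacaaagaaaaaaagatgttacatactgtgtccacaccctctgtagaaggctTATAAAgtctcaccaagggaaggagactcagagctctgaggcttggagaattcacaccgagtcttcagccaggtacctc
Lce1i: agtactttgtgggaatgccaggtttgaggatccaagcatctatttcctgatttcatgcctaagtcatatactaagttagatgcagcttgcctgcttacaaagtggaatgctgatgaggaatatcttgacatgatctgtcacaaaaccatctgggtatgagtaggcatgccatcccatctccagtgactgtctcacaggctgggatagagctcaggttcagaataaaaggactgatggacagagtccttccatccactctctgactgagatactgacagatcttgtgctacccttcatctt
In *Krt25* and *Krt28* TATAAA began 30 bases before the start, in *Krt31* 29 and in *Krt71* 40 bases before it. *Lce1i* held no exact match to either set of letters. Only exact matches were searched, and near matches such as aataaa in *Lce1i* were not counted. A promoter was matched by symbol for 10814 of the tested genes, and TATAAA stood in 7.57% of these. It stood in 7 of 7 promoters of inner root sheath keratins, in 6 of 9 of hair shaft keratins and in 29 of 35 of KAP genes. It stood in 3 of 15 promoters of late cornified envelope genes and in 0 of 10 of sebaceous markers. Among all matched genes that rose 27.0% held it, and among those that fell 17.9%. Both shares include the genes of the lists above that passed the test, and neither was computed without them. CTTTGA stood in 1 of 7 promoters of inner root sheath keratins, 5 of 9 of hair shaft keratins and 12 of 35 of KAP genes, against 12.4% of all. It stood in 3 of 15 promoters of late cornified envelope genes, in 21.3% of those of all genes that rose and in 22.5% of those of genes that fell. Other letters were searched the same way. TGANTCA, the AP-1 site, stood in 8 of 35 KAP promoters and 5.30% of all. CCAAT stood in 38.5% of all promoters, in 4 of 7 of inner root sheath keratins, 5 of 9 of hair shaft keratins and 14 of 35 of KAP genes. It stood in 7 of 10 promoters of sebaceous markers and in 0 of 15 of late cornified envelope genes. AGGTCA, a site of nuclear receptors, stood in 5 of 15 promoters of late cornified envelope genes and 12.2% of all.

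The inner root sheath keratins rose nearly as a whole. Of 8 genes, all tested, 7 rose and 0 fell (87.5%, against 1.97% of all genes), 4 of them without the block and 7 in DESeq2. The summed level of the list was 601 and 817 CPM in the WT female and male libraries and 1419 and 1878 CPM in the *Scd1-/-* female and male libraries. The median log2 fold change was 1.31, with 1.21 in the female pair and 1.41 in the male pair. Without the *Scd1-/-* male library, in a fit of 3 libraries without the block, 4 of the 8 passed.

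*Krt71*, a type II keratin of all inner root sheath layers, had the highest level per length of the list, 257 FPKM on average. Its levels were 294 and 417 CPM in WT and 666 and 879.9 CPM in *Scd1-/-* epidermis. Both *Scd1-/-* libraries lay above both WT libraries (2.19-fold, SE of the log2 fold change 0.111, adjusted p = 1.78e-21), but the gene did not pass without the block (adjusted p = 0.124). *Krt25*, a type I keratin of the same sheath, was read at 128 and 182 CPM in WT and at 341 and 437 CPM in *Scd1-/-* epidermis. It rose 2.53-fold, with and without the block (adjusted p = 1.61e-28 and 0.0453 in edgeR). *Krt28* had the largest change of the list, from 21.4 and 20.3 CPM to 58.5 and 73.4 CPM, with a log2 fold change of 1.65 (SE 0.135). WT libraries of both sexes were close here, unlike for *Krt71* and *Krt25*, which were lower in the female than in the male library of each genotype. *Krt72* and *Krt73*, type II keratins of the sheath cuticle, rose by log2 fold changes of 1.59 and 1.49, and both passed without the block. *Krt27* and *Krt26* rose by 1.06 and 1.29 with the block only. *Krt74* was read at 2.89 and 3.66 CPM in WT and at 4.88 and 5.72 CPM in *Scd1-/-* epidermis and did not pass (log2 fold change 0.70, adjusted p = 0.157 in edgeR). The genes that rose lie in 2 clusters, with 4 of 4 on chromosome 11 and 3 of 4 on chromosome 15.

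**Figure D2:**
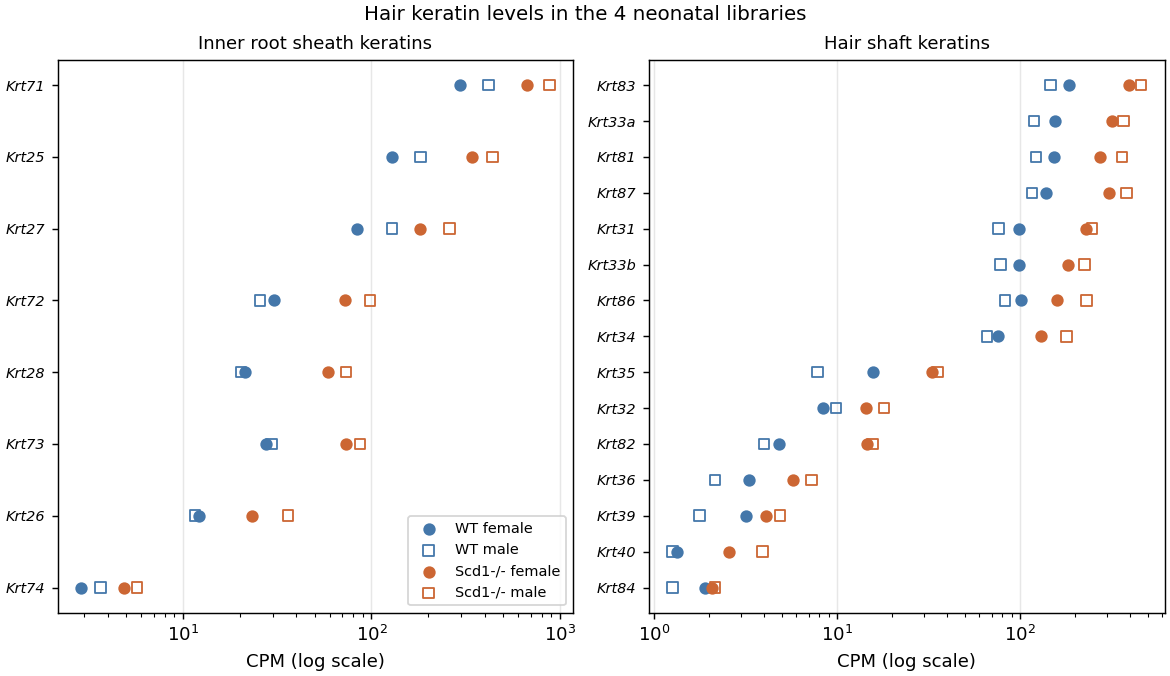
CPM of the inner root sheath and hair shaft keratins in the 4 libraries on a log axis, filled circles for female and open squares for male libraries, blue for WT and orange for *Scd1-/-*, ordered by level per length. For all 23 keratins both orange symbols stand above both blue ones, for *Krt71* at 666 and 879.9 CPM against 294 and 417 CPM, and 20 of the 23 passed the test.

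The keratins of the hair shaft moved likewise. Of 15 genes tested 13 rose and 0 fell (86.7%, against 1.97% of all genes), 7 of them without the block and 7 in DESeq2. The median log2 fold change was 1.26, with 0.89 in the female pair and 1.56 in the male pair. *Krt31*, a type I keratin of the hair cortex, was read at 98.7 and 76.3 CPM in WT and at 229.8 and 248 CPM in *Scd1-/-* epidermis. These levels were farther apart between the genotypes than within each. The rise was 2.74-fold (adjusted p = 4.88e-32 with the block, on a spread shared by all genes, and 0.0125 without it in edgeR). *Krt82*, a cuticle keratin at a low level, rose from 4.79 and 3.98 CPM to 14.7 and 15.6 CPM, the largest change of the list (log2 fold change 1.79, SE 0.205). *Krt35*, a keratin of the matrix and cuticle, was read at 15.8 and 7.84 CPM in WT and at 33.1 and 35.5 CPM in *Scd1-/-* cells. It rose with the block (log2 fold change 1.58) and did not pass without it (adjusted p = 0.124 in edgeR). For *Krt31* and *Krt35* the WT female library was above the WT male library, and the *Scd1-/-* female library was below the *Scd1-/-* male library, so the male pair moved more.

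The most abundant hair shaft keratin per length was *Krt83*, at 160.2 FPKM on average, with a log2 fold change of 1.36. *Krt83*, *Krt87*, *Krt81* and *Krt86* are neighbours on chromosome 15 with closely similar sequences, as are *Krt33a* and *Krt33b* on chromosome 11, so counts could be split between them and the single values are uncertain. All 6 rose, by log2 fold changes between 1.06 and 1.44. *Krt39* and *Krt84*, at most 4.87 CPM in any library, did not pass. Without the *Scd1-/-* male library 8 hair shaft keratins passed, and without the WT female library 14.

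The KAPs, which cross-link the keratins of the shaft, followed with smaller and less even changes. The table held 53 genes of the list, and 41 were tested, of which 23 rose and 0 fell (56.1%, against 1.97% of all genes). Of the 41, 38 lay above 0, the median log2 fold change was 0.83, and it was 0.46 in the female pair and 1.13 in the male pair. Only 3 passed without the block, 9 in DESeq2, 14 without the *Scd1-/-* female library and 3 without the *Scd1-/-* male library. *Krtap8-1*, a glycine- and tyrosine-rich KAP, rose from 123 and 93.3 CPM to 230.2 and 268 CPM (log2 fold change 1.21, SE 0.116). *Krtap7-1* and *Krtap11-1* rose by 1.22 and 1.23, and these 3 were the ones that passed without the block. By position, 15 of 19 genes rose in the cluster on chromosome 16, 8 of 17 on chromosome 11, 0 of 3 on chromosome 10 and 0 of 2 on chromosome 1. *Krtap14* and *Krtap15*, outside the list's naming pattern and looked up after their values were seen, were 2.14-fold and 2.23-fold higher. Many KAP genes have near-identical copies, so their single values are uncertain.

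Among 15 other genes of hair structure 9 rose and 0 fell (60%, against 1.97% of all genes), 3 of them without the block. The median log2 fold change was 0.82, and it lay between 0.69 and 1.01 when 1 library was left out. *Tchh* encodes trichohyalin, the granule protein that fills inner root sheath and medulla cells. It was read at 342 and 321 CPM in WT and at 789 and 846 CPM in *Scd1-/-* epidermis. The 2 libraries of each genotype were close, and the level was 2.47-fold higher (adjusted p = 2.35e-28 with the block and 0.0125 without it in edgeR). *Padi3*, a deiminase that modifies trichohyalin, rose by 0.97 on the log2 scale, and *Gprc5d*, a receptor of the hair-forming cells, by 1.28. *S100a3*, a calcium-binding protein of the hair cuticle, rose by 1.22, and *Dsg4*, a desmosomal cadherin of the hair shaft, by 1.29. *Krt75*, the keratin of the companion layer, rose by 0.82. *Tgm3*, a transglutaminase of both hair and epidermis, was read at 548 and 592 CPM in WT and at 517 and 545 CPM in *Scd1-/-* epidermis and did not pass (log2 fold change -0.10). In bulk RNA, more cells of the hair lineages and more hair RNA per cell cannot be told apart, and likewise for the cell types below.

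Of 36 regulators of the follicle tested, 2 rose and 1 fell (8.33%, against 3.52% of all genes), 0 without the block and 0 in DESeq2, and the median log2 fold change was 0.08. At an unadjusted p under 0.05 the count was 12 of the 36 with the block and 6 without it. Over all 15554 genes tested it was 1822 with the block and 908 without it. *Msx2*, a homeobox factor of hair shaft differentiation, rose from 6.18 and 5.81 CPM to 8.81 and 12.6 CPM (log2 fold change 0.82). *Foxn1*, the factor lost in nude mice, rose by 0.47. *Ovol2*, a repressor that guards epithelial identity, fell from 5.83 and 7.84 CPM to 3.28 and 3.51 CPM. *Hoxc13*, a factor of hair keratin genes, had a log2 fold change of 0.64 and did not pass (adjusted p = 0.169 in edgeR). *Lef1*, the Wnt-responsive factor of the hair matrix, had one of -0.56 and did not pass either. Dermal papilla markers could not be judged, since 1 of 10 was tested and they summed to at most 2.25 CPM.

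The late cornified envelope (*Lce*) genes, a cluster on chromosome 3 whose proteins join the envelope last, moved the other way. Of 21 genes listed, 16 were tested, and 14 fell and 0 rose (87.5%, against 1.55% of all genes). All 16 lay below 0, with a median log2 fold change of -0.66. Their summed level was 1750.1 and 1719 CPM in the WT female and male libraries and 955 and 1300.3 CPM in the *Scd1-/-* female and male libraries. The change was larger in the female pair, with a median of -0.87 against -0.40 in the male pair. None passed in edgeR without the block, where 14 had an unadjusted p under 0.05, 9 passed in DESeq2, and the count was 0 without the *Scd1-/-* female library and 3 without the *Scd1-/-* male library.

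*Lce1m* had levels of 402 and 416 CPM in WT and of 217 and 314 CPM in *Scd1-/-* epidermis. The groups did not overlap, and the *Scd1-/-* libraries differed more from each other than the WT libraries did (1.57-fold lower, adjusted p = 1.06e-06 with the block and 0.479 without it in edgeR). *Lce1i*, whose promoter is shown above, fell from 96.7 and 92.1 CPM to 54.1 and 62.0 CPM (log2 fold change -0.70). *Lce1h* and *Lce1l* had the largest changes of the list, both with a log2 fold change of -0.91, *Lce1h* with 303 and 559 counts in the *Scd1-/-* libraries against 875 and 644 in WT. *Kprp*, a keratinocyte proline-rich protein gene of the same region, looked up after its values were seen, had levels of 246 and 248 CPM in WT and of 126 and 191 CPM in *Scd1-/-* epidermis. *Lce* genes are close copies of one another, so their single values are uncertain.

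Other lists of envelope genes held only increases among the genes that passed. Of 7 small proline-rich genes tested 2 rose (28.6%), and of 25 other envelope genes 6 rose (24%), against 1.97% of all genes. Their medians were 0.28 and 0.23, and 0 of either list fell. None of these 8 passed without the block, nor when either *Scd1-/-* library was left out. *Sprr1a*, an early envelope precursor, rose from 207 and 229 CPM to 331 and 429 CPM (log2 fold change 0.79, SE 0.112). *Sprr4* rose by 0.69 and *Crnn*, cornulin, by 0.73. *Tgm1*, the transglutaminase that cross-links the envelope, rose by 0.49 from 111 and 129 CPM to 140.1 and 201 CPM. *Lor*, loricrin, its main protein, was read at 3047 and 4285 CPM in WT and at 3057 and 4353 CPM in *Scd1-/-* epidermis, with a log2 fold change of 0.01. *Flg*, filaggrin, passed with overlapping genotypes, at 1449.6 and 1489 CPM against 1473 and 2350.4 CPM. In the whole region from *S100a1* to *S100a11* (chr3:90511034-93526287), 57 genes were tested, of which 10 rose and 17 fell, and only *Tchh* and *S100a3* passed without the block. With the *Lce* genes set aside, 41 remained, of which 10 rose and 3 fell. Over all genes tested 1.97% rose and 1.55% fell.

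**Figure D3:**
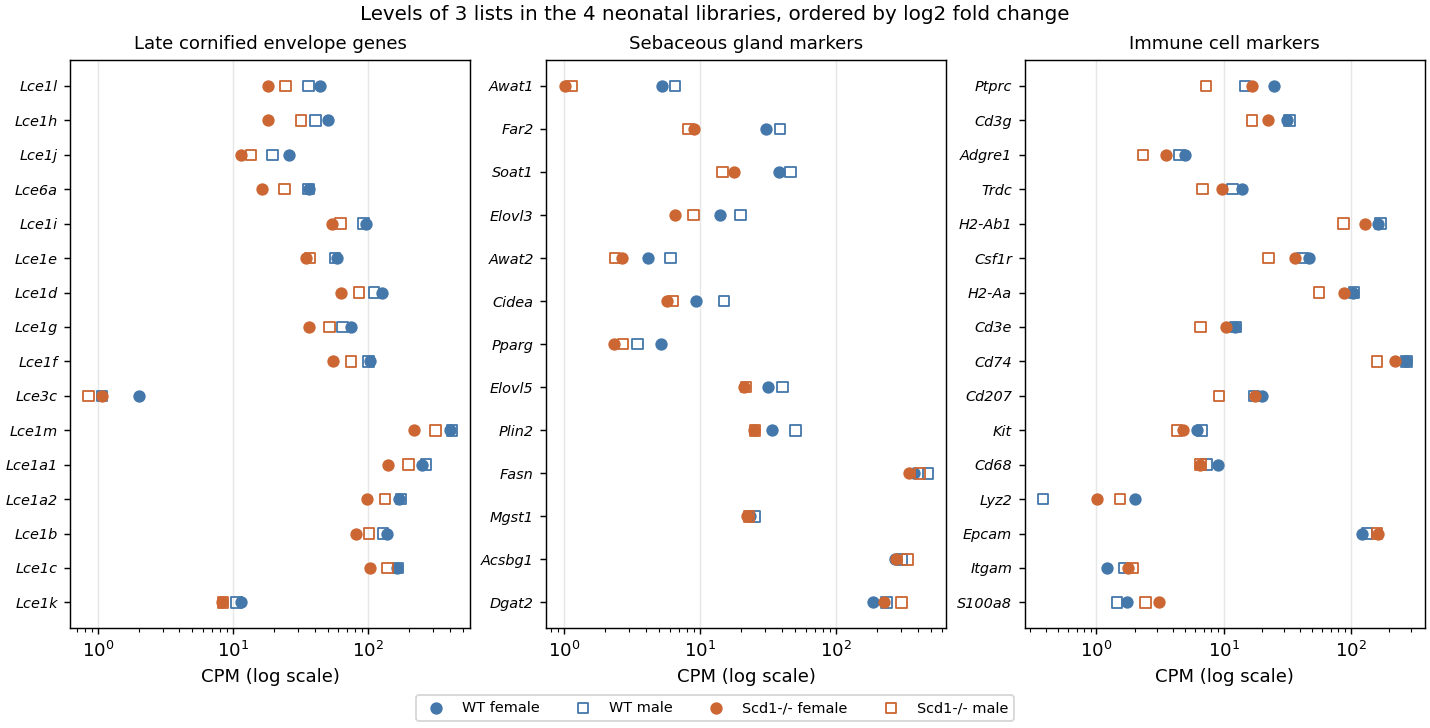
CPM on a log axis in the 4 libraries for late cornified envelope genes, sebaceous gland markers and immune cell markers, filled circles for female and open squares for male libraries, blue for WT and orange for *Scd1-/-*. In the first panel the *Scd1-/-* female library is lowest for 15 of 16 genes, for *Lce1m* at 217 CPM against 402 CPM in its WT partner.

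The list of basal and suprabasal epidermal keratins was not confined to the interfollicular epidermis. Of its 18 tested genes 1 rose and 1 fell (11.1%, against 3.52% of all genes). Without the block 0 passed the threshold, and the median log2 fold change was 0.04. *Krt10* and *Krt14*, the suprabasal and basal keratins at 9038 and 7516 FPKM on average, had log2 fold changes of 0.20 and -0.14 and did not pass. *Krt79*, a keratin of the follicle opening, rose from 2887 and 3692 CPM to 4711 and 4746 CPM (log2 fold change 0.53). *Krt15*, a basal keratin, fell from 4709 and 5782 CPM to 4231 and 3811 CPM (log2 fold change -0.38, adjusted p = 0.0148 in edgeR). Of 4 stress keratins 2 rose (50%, against 1.97% of all genes). *Krt6a* rose from 64.9 and 67.4 CPM to 104 and 124 CPM, by 0.78. *Krt17*, which is also a follicle keratin, rose by 0.51. *Krt16* and *Krt6b*, at log2 fold changes of 0.25 and -0.71, did not pass, and none of the 4 passed without the block.

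Junction and protease genes had scattered changes. Of 14 desmosome genes 2 rose (14.3%, against 1.97% of all genes), *Dsg4* above and *Dsc1*, a cadherin of the upper layers, by 0.55. Of 15 tight junction genes *Cldn4* rose (6.67%), by 0.56, and of 12 gap junction genes 3 rose (25%), with *Gjb2*, connexin 26, at 0.73. None of these passed without the block. *Klk7*, a protease that sheds corneocytes, rose from 445 and 560.1 CPM to 632 and 773 CPM. *Cst6*, an inhibitor of cysteine proteases that guards cornification, rose from 933 and 1182 CPM to 1478 and 1797 CPM (log2 fold change 0.63). *Serpina3j*, a serine protease inhibitor gene, had the largest loss among the serpins. It was read at 235 and 220 counts in WT and at 11 and 2 counts in *Scd1-/-* epidermis (log2 fold change -5.16, SE 0.321, adjusted p = 4.16e-54 with the block and 0.0036 without it in edgeR). Its neighbour *Serpina3b* fell from 59.3 and 58.4 CPM to 30.9 and 30.1 CPM and also passed without the block. The serpin cluster holds near copies, so both values are uncertain.

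Single genes of foreign compound and ester metabolism were among the deepest losses, but not every list of this kind fell. Of 22 glutathione S-transferases tested 1 rose and 0 fell, and of 35 aldehyde and short-chain dehydrogenases 1 rose and 0 fell. These are 4.55% and 2.86% higher, against 1.97% of all genes. Of 9 UDP-glucuronosyl and sulfotransferases 0 passed, against 3.52% of all genes. Of 29 cytochromes P450 tested 6 fell and 1 rose (20.7% and 3.45%, against 1.55% and 1.97% of all genes). The median log2 fold change was -0.25, and 1 gene of the list passed without the block. With 1 *Scd1-/-* library left out, whichever it was, 2 fell. That gene, *Cyp2g1*, an enzyme best known from olfactory mucosa, was read at 29.0 and 42.3 CPM in WT and at 2.80 and 2.44 CPM in *Scd1-/-* epidermis. It was 13.4-fold lower, where *Scd1* itself was 11.9-fold lower. *Cyp1a1*, the classical target of the aryl hydrocarbon receptor, fell from 3.81 and 5.56 CPM to 1.19 and 1.19 CPM. Of 5 carboxylesterases tested 2 fell and 0 rose (40%, against 1.55% of all genes), 1 of them without the block. Their median log2 fold change was -0.11. *Ces4a* of this list fell from 10.2 and 16.1 CPM to 0.715 and 0.680 CPM (log2 fold change -4.21). Its adjusted p was 1.89e-43 with the block and 0.00254 without it in edgeR. Retinoid genes moved upward in 3 of 22 (13.6%, against 1.97% of all genes), with 0 lower and 0 past the threshold without the block. *Stra6*, the membrane receptor for retinol uptake, rose from 4.50 and 3.48 CPM to 11.4 and 9.58 CPM. *Fbp1*, an enzyme of gluconeogenesis, rose from 4.96 and 3.48 CPM to 11.4 and 13.9 CPM, also without the block.

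Sebaceous gland markers fell. The median log2 fold change of the 13 tested was -0.76. Of these 8 fell and 0 rose (61.5%, against 1.55% of all genes), 3 without the block and 4 in DESeq2. The count was 4 without the WT male, 3 without the *Scd1-/-* female and 4 without the *Scd1-/-* male library, each in a fit without the block. *Far2*, which reduces fatty acyl chains to the alcohols of wax esters, was read at 30.4 and 38.8 CPM in WT and at 9.05 and 8.27 CPM in *Scd1-/-* epidermis. It was 3.97-fold lower (adjusted p = 7.97e-31 with the block and 0.00701 without it in edgeR). *Soat1*, which esterifies cholesterol, fell by 1.38 on the log2 scale, and *Awat1*, a wax synthase, by 2.45. The summed level of the list, 1031 and 1271 CPM against 964 and 1173 CPM, overlapped between genotypes, since the most abundant members did not pass. These markers are enzymes of lipid synthesis as well as marks of a cell type, and the 2 readings cannot be told apart.

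Immune and pigment cell markers were lower too, by smaller amounts. Of 16 immune markers tested 8 fell and 0 rose (50%, against 1.55% of all genes), 6 of them without overlap of the genotypes (1.49% of all genes). The median log2 fold change of these markers was -0.54. Their summed level was 839.6 and 842 CPM in WT and 742 and 556 CPM in *Scd1-/-* epidermis. The counts were 0 without the block, 1 in DESeq2, 4 without the WT female library, 1 without the *Scd1-/-* female library and 0 without the *Scd1-/-* male library. *H2-Ab1*, a chain of MHC class II, was read at 164 and 172 CPM in WT and at 130.5 and 87.9 CPM in *Scd1-/-* epidermis (log2 fold change -0.65). *Cd3g*, a chain of the T cell receptor complex, fell from 31.4 and 33.0 CPM to 22.6 and 16.7 CPM. All 10 tested genes of the gamma-delta T cell receptor and CD3, grouped after their values were seen, lay below 0, and 6 fell (60%). Of 8 MHC class II genes 5 fell (62.5%), where 1.55% of all genes fell, with 0 of either list past the threshold without the block. Of 12 melanocyte markers 4 fell (33.3%, against 1.55% of all genes). *Pmel* fell from 95.9 and 134 CPM to 76.3 and 73.2 CPM and *Dct* from 118 and 150.2 CPM to 94.5 and 95.5 CPM. None of the 4 passed without the block, in DESeq2, or in fits that left out a library other than the WT female. Whether these markers have a part in the other changes was not tested.

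Among genes of defence and signaling, *Defb6*, a beta-defensin, rose from 28.0 and 32.2 CPM to 92.0 and 84.7 CPM. This 2.94-fold rise passed with and without the block (adjusted p = 7.75e-32 and 0.00701 in edgeR), while the other 2 beta-defensins tested did not pass. *Chil1*, a chitinase-like protein, was read at 21.4 and 16.2 CPM in WT and at 36.5 and 47.6 CPM in *Scd1-/-* epidermis and rose, and the chemokine *Ccl20* rose by 0.78. The complement genes *C1qa*, *C1qb* and *C1qc*, products of macrophages, fell, as 3 of 9 complement genes (33.3%, against 1.55% of all genes), *C1qa* from 2.65 and 5.18 CPM to 0.834 and 0.963 CPM. In the Wnt pathway 4 of 47 rose and 2 fell (8.51% and 4.26%, against 1.97% and 1.55% of all genes). Among them were the feedback inhibitor *Nkd2* at 1.22, the ligand *Wnt11* at 1.06 and the ligand *Wnt7a* at -0.69. In the BMP and TGF-beta pathway 3 of 35 rose (8.57%, against 1.97% of all genes), among them the pseudoreceptor *Bambi* at 0.87. Of 247 solute carriers 15 rose and 2 fell (6.07% and 0.81%, against 1.97% and 1.55% of all genes), with the iron exporter *Slc40a1* at 0.63. Their median log2 fold change was -0.01, and it lay between -0.04 and 0.02 when 1 library was left out. Apart from *Defb6*, none of the genes in this paragraph passed without the block.

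Of 40 cell cycle genes, 15 heat shock genes, 17 p53 targets and 19 oxidative stress genes, 0 passed in edgeR with or without the block, and 0 in DESeq2. At an unadjusted p under 0.05, with the block, the counts were 3, 3, 2 and 3, where 1822 of all 15554 genes tested had one. Their median log2 fold changes were -0.05, 0.01, 0.04 and 0.03. *Cdk2*, a cyclin-dependent kinase, was read at 93.7 and 95.3 CPM in WT and at 73.0 and 82.9 CPM in *Scd1-/-* epidermis and did not pass. Of 84 cytoplasmic ribosomal protein genes 2 rose and 1 fell (3.57%, near the 3.52% of all genes). *Rps27a*, which also passed without the block, had levels of 185 and 216 CPM in WT and of 474 and 489.6 CPM in *Scd1-/-* epidermis, but it has processed copies in the genome and the value is uncertain. Of 331 zinc finger genes named *Zfp*, 2 fell and 0 rose (0.60%, against 1.55% of all genes), with 0 without the block. Of 22 mitochondrially encoded genes, grouped after their values were seen, 5 fell and 0 rose (22.7%, against 1.55% of all genes). Without the block 0 of them passed, and the median log2 fold change was -0.30.

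Genes outside the groups above, or in smaller lists, also changed. *Calhm4*, a channel protein gene, was higher by 1.58 on the log2 scale with the block only. *Tmem45b*, a membrane protein gene, was lower by 1.87 and also passed without the block. *Gsdma3*, a gasdermin counted among the other genes of hair structure, rose from 1.85 and 1.33 CPM to 4.65 and 4.93 CPM. *Ctse*, an aspartic protease, rose from 1.85 and 2.53 CPM to 4.29 and 5.89 CPM, and *Mt4*, a metallothionein counted there too, from 17.5 and 21.0 CPM to 34.5 and 31.7 CPM. *Grhl1* and *Hopx*, factors of epidermal differentiation, rose by 0.42 and 0.43, as 2 of 26 such factors (7.69%, against 1.97% of all genes). Of the genes in this paragraph, *Calhm4*, *Gsdma3*, *Ctse*, *Mt4*, *Grhl1* and *Hopx* did not pass without the block. *Per1*, a clock gene, passed at 164 and 79.9 CPM in WT and 174 and 166 CPM in *Scd1-/-* epidermis, where only the WT male library stood apart. The pseudogene *Gm12411* and the genes *Sumo2*, *Lsm5*, *Gm49425* and *Srp54b* were also among the largest changes, and each has or may share reads with near copies, so their values are uncertain.

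**Figure D4:**
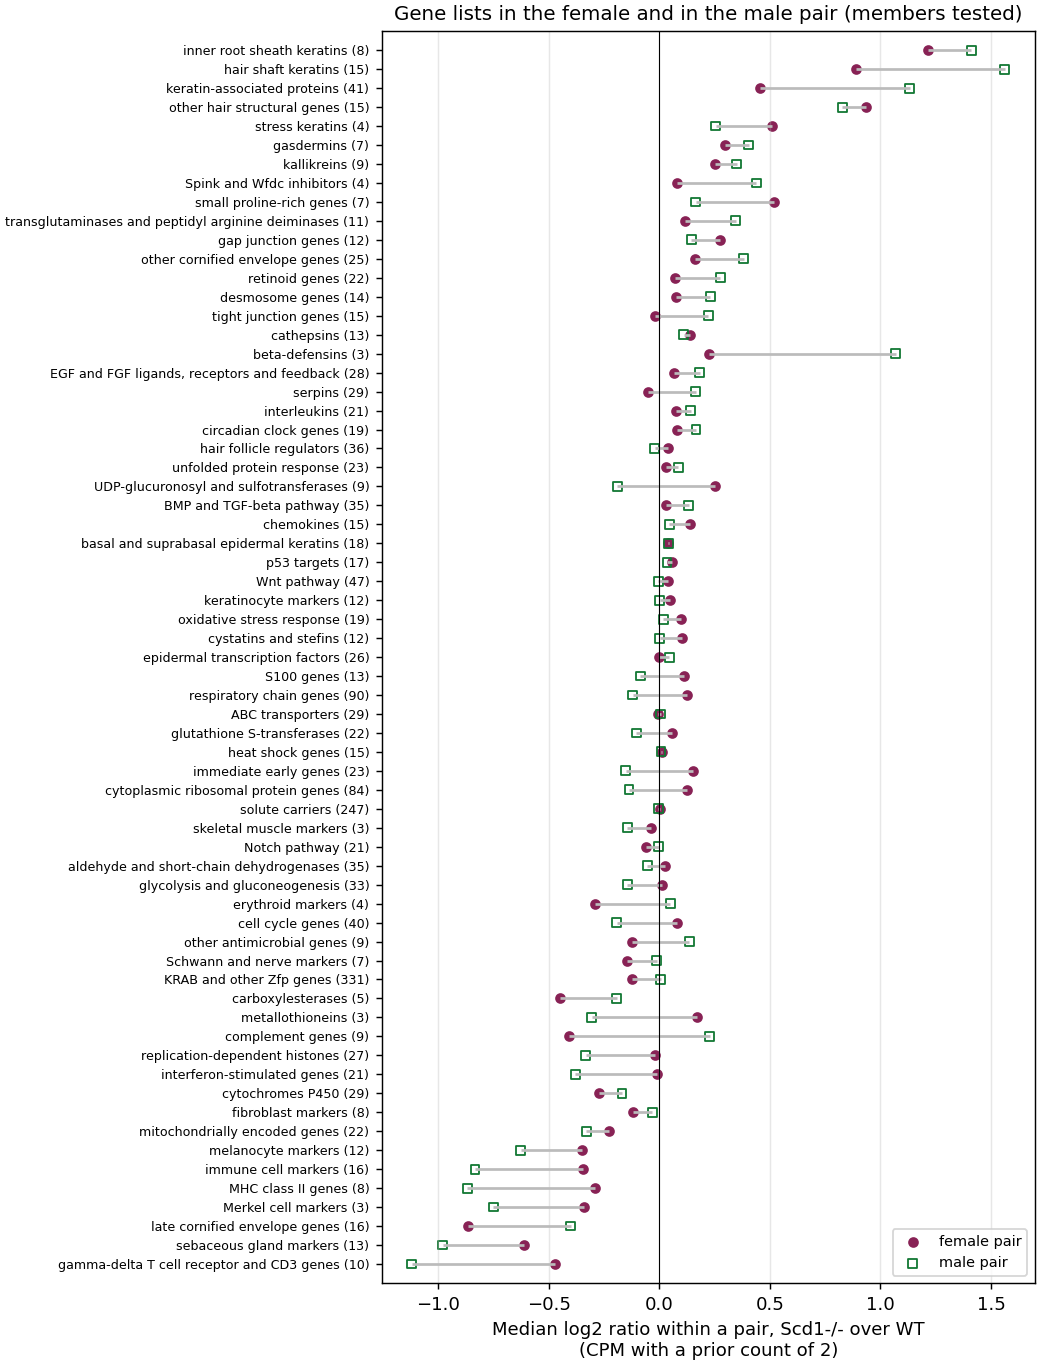
Median log2 ratio of *Scd1-/-* over WT within the female pair (filled circles) and the male pair (open squares) for each gene list with at least 3 tested members, whose number stands in brackets. The 4 hair structural lists lie to the right in both pairs, inner root sheath keratins at 1.21 and 1.41, and the late cornified envelope, sebaceous and immune lists lie to the left in both.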

How the data were processed

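Epidermal cells were freed from skin, RNA was extracted with Trizol, and libraries were made with a NEBNext Ultra kit for Illumina sequencing. The submitters' processing notes name HISAT2 2.0.5, featureCounts 1.5.0-p3 and DESeq2 1.16.1, and the builds GRCm38 and mm10. The authors deposited raw read counts per gene, without normalization, and FPKM values, which scale counts by length and depth. The strand setting is not given in the sources used here, so overlapping genes can share reads. Columns of the authors' own tests (log2 fold changes with their raw and adjusted p-values, each of 1 library against 1) and 8 columns of normalized per-sample values were not used. FPKM served only to compare levels between genes. The table of the later age was not used here.

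Counts were filtered with filterByExpr (minimum count 10), scaled by TMM and fitted with edgeR 4.0.16 in R 4.3.3 by glmQLFit and glmQLFTest, with genotype and the sex-matched pair as terms. The Benjamini-Hochberg adjustment covered every gene that passed the filter, and the threshold was 0.05. Each SE was taken as the absolute log2 fold change over the square root of the test's F statistic. It therefore rests on the spread shared by all genes and does not measure the spread of a single gene. Deviations of same-sex libraries from their genotype means correlated at 0.345 over genes. The pairs follow the sex labels and the study's general statement of sex-matched littermate controls, and the labels name no litters. The biological coefficient of variation was 0.0931 with the block and 0.147 without it. The study's methods name DESeq2 with the same threshold. Log2 ratios within a pair used a prior count of 2. An exact permutation test of 2 libraries against 2 cannot go below 0.333 (two-sided), so none was run. Totals of 16118331 to 18074702 counts limit the precision of genes under 5 CPM.

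Lists were composed by hand, and 66 were fixed with 4 added after values were seen (mitochondrially encoded, MHC class II, gamma-delta T cell receptor and *Zfp* genes). The comparison and the lists were chosen with earlier results of these data known. Lists are described by counts and medians, with no set test. Genes named are *Scd1*, its called neighbours within 1 Mb, the 12 largest changes per direction without overlap above 5 CPM, the 5 most abundant called genes per direction, up to 4 called members of each list by p (or 2 where none passed), and all tested inner root sheath and hair shaft keratins. Not every gene of this rule is named. Outside it, *Lor*, *Scd2*, *Krt10*, *Krt14*, *Krt16*, *Krt6b*, *Krt75*, *Tgm3*, *Hoxc13* and *Lef1* were added for their role, after their values were seen. Promoters came from RefSeq (GRCm38.p6). Alternatives were the fit without the block, DESeq2 1.42.0, RLE factors, library size alone, no filter, at least 10 counts in every library, a minimum absolute log2 fold change of 1 and each library left out. The voom method of limma 3.58.1 and a demand for no overlap were added after seeing the data. The fits were also run on simulated counts with the same spread in every gene. Such counts cannot show how the fit with the block does where the spread differs between genes.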

Additional observations from a re-analysis of the deposited data

Results flagged for a closer look

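The female and the male pair moved in opposite directions for 6 of the 548 genes past the threshold, which rest on 1 library per genotype and sex. Whether the pairs differ was not tested. *Gapdh*, a glycolytic enzyme with many processed copies, had a log2 ratio of 2.02 in the female pair and of -0.39 in the male pair. *Rpl17-ps10*, a ribosomal pseudogene, had -1.35 and 0.49. *Col3a1*, a fibroblast collagen, had -4.39 and 0.65, with 192 counts in the WT female library and 7 to 17 in the other 3. *Zkscan3*, a zinc finger factor, had -0.96 and 0.092. *6820431F20Rik* had -0.084 and 1.22, and *Arl4d*, a small GTPase, had -0.00057 and 1.29. Among gene lists with no uniform direction, the median log2 ratio of 9 complement genes was -0.41 in the female pair and 0.23 in the male pair. That of 2 endothelial markers was 0.52 and -0.52.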

How the results depend on the processing

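Without the replicate block the count of differentially expressed genes was 45 in place of 548, with 23 higher and 22 lower, and 908 genes in place of 1822 had an unadjusted p under 0.05. DESeq2 with the block called 107, with 64 higher and 43 lower, and a minimum absolute log2 fold change of 1 left 179, with 95 and 84. Leaving out each library in turn, in fits of 3 libraries without the block in which the lone library is assumed to vary like the other genotype, gave 73 to 797 genes, 36 to 529 of them higher and 37 to 268 lower. The highest count came without the WT female library and the lowest without the *Scd1-/-* male library. Other counts stayed within 1.5 times, with 550 for RLE factors, 545 for library size alone, 512 without a filter, 511 with at least 10 counts in every library, 483 in voom and 519 with no overlap. Library size alone changed the split to 274 higher and 271 lower. *Scd1* kept its direction and its call in all of these, with log2 fold changes between -3.78 and -3.36 when libraries were left out. Of 157 named genes past the threshold, 34 passed without the block and 61 in DESeq2. Directions reversed for 4 genes when a library was left out, with log2 fold changes from -0.48 (without the *Scd1-/-* female library) to 2.11 for *Gapdh*, from -3.98 to 0.28 for *Col3a1* and from -1.75 to 0.16 for *Col1a1* (both without the WT female library), and from -0.0027 (without the WT male library) to 0.82 for *Postn*. The cause was not tested. Genes under about 5 CPM are limited by depth.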

Other observations

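Genes outside the lists also led the changes, and were chosen here after their values were seen. *Vsig8*, an immunoglobulin-domain protein, was read at 26.0 and 24.1 CPM in WT and at 50.6 and 70.1 CPM in *Scd1-/-* epidermis, with a log2 fold change of 1.25, and it passed without the block. *Psors1c2* was read at 41.6 and 32.5 CPM in WT and at 83.8 and 106 CPM in *Scd1-/-* epidermis and also passed without the block. *Vim*, the intermediate filament of non-epithelial cells, was read at 179 and 187 CPM in WT and at 127 and 95.8 CPM in *Scd1-/-* epidermis, a log2 fold change of -0.73 that did not pass without the block (adjusted p = 0.248 in edgeR).

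By position, 33 of 510 genes tested on chromosome 16 passed, 6.47% against 3.52% over the genome. With the families of hair and envelope genes set aside the share was 3.67%. On chromosome 3 it was 5.82% with them and 3.85% without, and on chromosome 11 it was 4.37% and 2.80%. On chromosome 15 it was 5.89% and 4.54%.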
